A study of Caenorhabditis elegans with 15 samples.

Results

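Larvae with a mutation in lin-35, the retinoblastoma gene of the worm, were compared, across all measured genes, with larvae of 2 other mutant strains, alg-1 and zfp-1, averaged, and wild type was not the reference. The comparison used 7 separately grown populations of Caenorhabditis elegans on 9 arrays, out of 13 populations on 15 arrays in the series. Strain MT3033, with the genotype lin-35(n745) unc-13(e1091) I, had 2 populations, and the second was hybridised to 2 arrays that were averaged. Strain VC446, alg-1(gk214) X, had 3 populations, and strain RB774, zfp-1(ok554) III, had 2, the second also averaged over 2 arrays. The reference was the mean of the alg-1 and zfp-1 group means, so each strain had equal weight. Wild type (Bristol strain N2) and strain BB11, rde-4(ne299) III, with 3 populations each, helped to estimate the spread and are quoted as context. Eggs released with hypochlorite hatched overnight without food, and the larvae then fed on OP50 bacteria for 6 to 7 h and were collected whole at the L1 to L2 stage. The strain called lin-35 below also carries the unc-13 mutation, and the effects of the 2 mutations cannot be told apart. Each mutant is 1 strain, so differences in strain background cannot be told apart from the named mutation either.

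The worm has a single retinoblastoma family protein, LIN-35. It acts with an E2F and DP pair and the MuvB core proteins in the DREAM complex, which represses cell cycle genes and keeps germline genes silent in somatic cells. ALG-1 is an Argonaute protein that carries microRNAs, and ZFP-1 is a chromatin protein with PHD zinc fingers that has been tied to RNA interference. RDE-4 binds double-stranded RNA and hands it to Dicer. UNC-13 primes synaptic vesicles for release.

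Values are the deposited log2 expression values of 1 probe set per gene, so a difference of 1 is a 2-fold ratio. Of 17118 genes with a probe set, 8653 had a value of at least 5 in at least 2 of the 13 populations and were tested with limma, with p-values adjusted by the Benjamini-Hochberg method over all of them. A gene passed at an adjusted p under 0.05. Between 8151 and 8374 genes reached 5 in each population. Where every sample of a group was below 5, the fold is given as a lower bound measured from 5, because such values give no dependable level. The 2 lin-35 populations differed from each other with an SD of 0.586 across genes, the zfp-1 populations with 0.363, and 2 arrays of the same population with 0.220 or 0.365. Populations 1 and 3 of alg-1 differed by only 0.270, about the spread of repeated arrays, while alg-1 population 2 differed from them by 0.647 and 0.674. The labels list all 3 as biological replicates, but p-values measure only the spread between these samples. The actin control probes read 0.81 to 1.79 higher (log2) at the 3′ than at the 5′ end on the lin-35 arrays, and 0.89 to 1.62 higher on the alg-1 and zfp-1 arrays. Median array values were 4.80 to 4.86 for lin-35 and 4.54 to 4.66 for alg-1 and zfp-1.

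The mutated genes were read first. The lin-35 probe set gave 7.47 and 8.24 in the lin-35 populations, 9.37, 9.64 and 9.78 in alg-1 and 9.64 and 9.997 in zfp-1. Both lin-35 populations lay below all 5 reference samples, a fall of 1.85 ± 0.23 (SE, limma adjusted p = 2.19e-04). The unc-13 values were 10.03 and 9.88 in lin-35, 10.18, 10.03 and 10.25 in alg-1 and 10.27 and 10.29 in zfp-1, which overlap (limma adjusted p = 0.464). The alg-1 probe set was lowest in the alg-1 strain, at 8.35, 6.28 and 8.70, against 10.20 and 10.08 in zfp-1 and 9.37 and 9.09 in lin-35, with no overlap. The zfp-1 values differed little and were highest, not lowest, in the zfp-1 strain, by a narrow gap: 13.55 and 13.49 in zfp-1, 13.41, 13.10 and 13.42 in alg-1 and 13.26 and 13.11 in lin-35. The lin-35 and alg-1 readings were each lowest, among these 3 strains, in the strain named for the gene. Where the probe sets lie relative to the lesions was not analysed here.

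In lin-35 larvae 659 of 8653 genes passed against alg-1 and zfp-1 averaged, 7.62% of those tested. Of these, 568 were higher in lin-35 (6.56% of tested genes) and 91 were lower (1.05%), so 86.2% of the calls were rises. The median difference was 1.63 among genes that rose and -1.30 among genes that fell, beside -0.01 over all tested genes. Rises of at least 4-fold numbered 226, and falls of that size 14. Both lin-35 samples lay beyond all 5 reference samples for 553 of the 568 rises and 86 of the 91 falls, while over all tested genes 15.6% lay above and 10.1% lay below. Among the rises, 140 genes were below 5 in all 5 reference samples, and 131 were tested only because lin-35 carried them past the filter. Leaving the 159 genes that entered that way aside, 437 of 8494 genes were higher and 91 lower.

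The balance of rises over falls depends on how the arrays are scaled. Subtracting each array's median moved the median of all tested genes to -0.24 and gave 402 rises and 266 falls, or 60.2% rises. Under the same scaling the medians of germ granule, RNA interference, Rb and E2F, neuropeptide, nuclear hormone receptor, intestine and chemoreceptor genes, all small and positive in what follows, turned negative, at -0.14, -0.07, -0.14, -0.15, -0.10, -0.15 and -0.20. Quantile normalisation gave 465 rises and 160 falls, or 74.4% rises. The 2 lin-35 populations also weighed unequally: without the first, 342 genes rose and 25 fell, and without the second 403 rose and 159 fell. Counting alg-1 populations 1 and 3 as 1 sample gave 463 rises and 67 falls.

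Set against each strain alone, lin-35 differed from alg-1 at 601 genes (6.95% of tested genes), 476 of them higher in lin-35 (5.50%) and 125 lower (1.44%). It differed from zfp-1 at 543 genes (6.28%), 488 higher (5.64%) and 55 lower (0.636%). The 2 reference strains differed from each other at 61 genes (0.705%), 43 higher in alg-1 (0.497%) and 18 higher in zfp-1 (0.208%). The comparisons against each strain share the lin-35 samples. Of the 568 rises, 342 passed against each strain alone, and 2 had opposite signs against the 2 strains. Of the 91 falls, 20 passed against each strain alone and none had opposite signs. The plot of the difference from alg-1 against that from zfp-1 shows where the 2 references part.

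**Figure D1:**
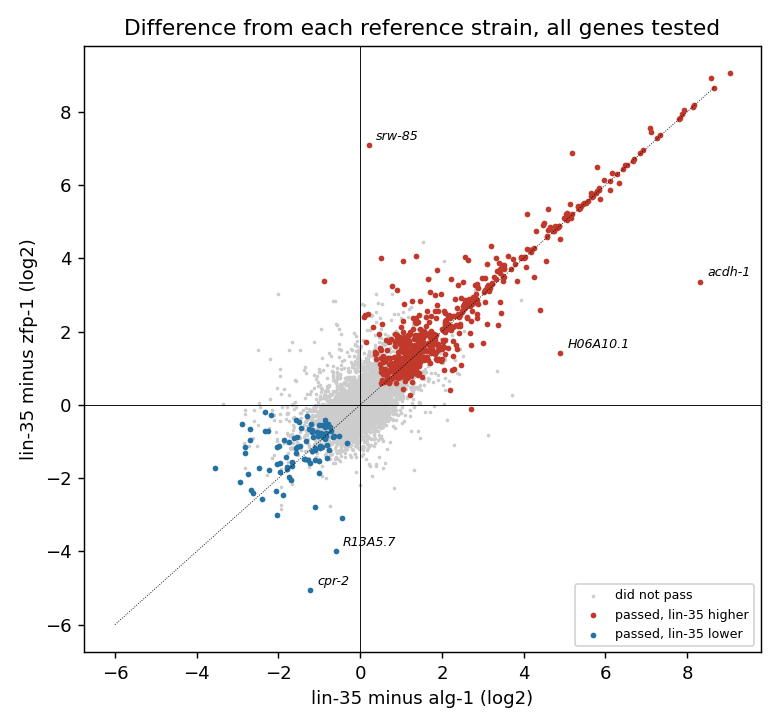
Difference of lin-35 from alg-1 (horizontal axis, log2) and from zfp-1 (vertical axis, log2) for the 8653 genes tested; red and blue points are the 568 genes that rose and the 91 that fell against the mean of both strains, and the dotted line marks equal differences. The largest rises lie near the line, while srw-85, H06A10.1, acdh-1, cpr-2 and R13A5.7 lie far from it.

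The largest fitted rises were genes near the bottom of the scale in the reference samples, so their sizes are lower bounds and their order is not dependable. The P granule gene pgl-1, which encodes an RNA-binding scaffold of germ granules, was at 12.08 and 12.09 in lin-35, 4.02, 3.24 and 3.24 in alg-1 and 3.13 and 3.22 in zfp-1. The lin-35 samples stood apart from every reference sample, at least 136-fold higher (limma adjusted p = 6.15e-09). The gene ddn-1 was at 11.79 and 11.58 in lin-35 against 2.65, 2.65 and 2.62 in alg-1 and 2.66 and 2.62 in zfp-1, at least 103-fold higher (limma adjusted p = 1.79e-10). The innexin inx-22, a gap junction protein of the germ line, was at 10.73 and 10.85 in lin-35, 2.13, 2.14 and 2.13 in alg-1 and 2.16 and 2.12 in zfp-1. The groups were separated by a gap wider than the whole spread within either, at least 55.3-fold (limma adjusted p = 5.60e-12). The other 9 of the 12 were him-3, pgl-3, B0507.8, Y54G9A.5, Y47G6A.25, F37D6.3, C54D10.10, hpo-32 and lotr-1. The first 8 of these were at least 29.5-fold (Y47G6A.25) to 70.9-fold (B0507.8) higher. The germ granule helicase gene glh-1, outside the 12 but with reference values all above 5, rose by 6.14, a 70.7-fold ratio that is above the lower bounds of inx-22, him-3 and pgl-3. LOTR-1 is a LOTUS and Tudor domain protein of germ granules. In all 12 genes every reference value was below 5, except lotr-1 in alg-1 population 1 at 5.53. Wild type and rde-4 were below 5 as well, except C54D10.10 in wild-type population 1 at 5.75.

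**Figure D2:**
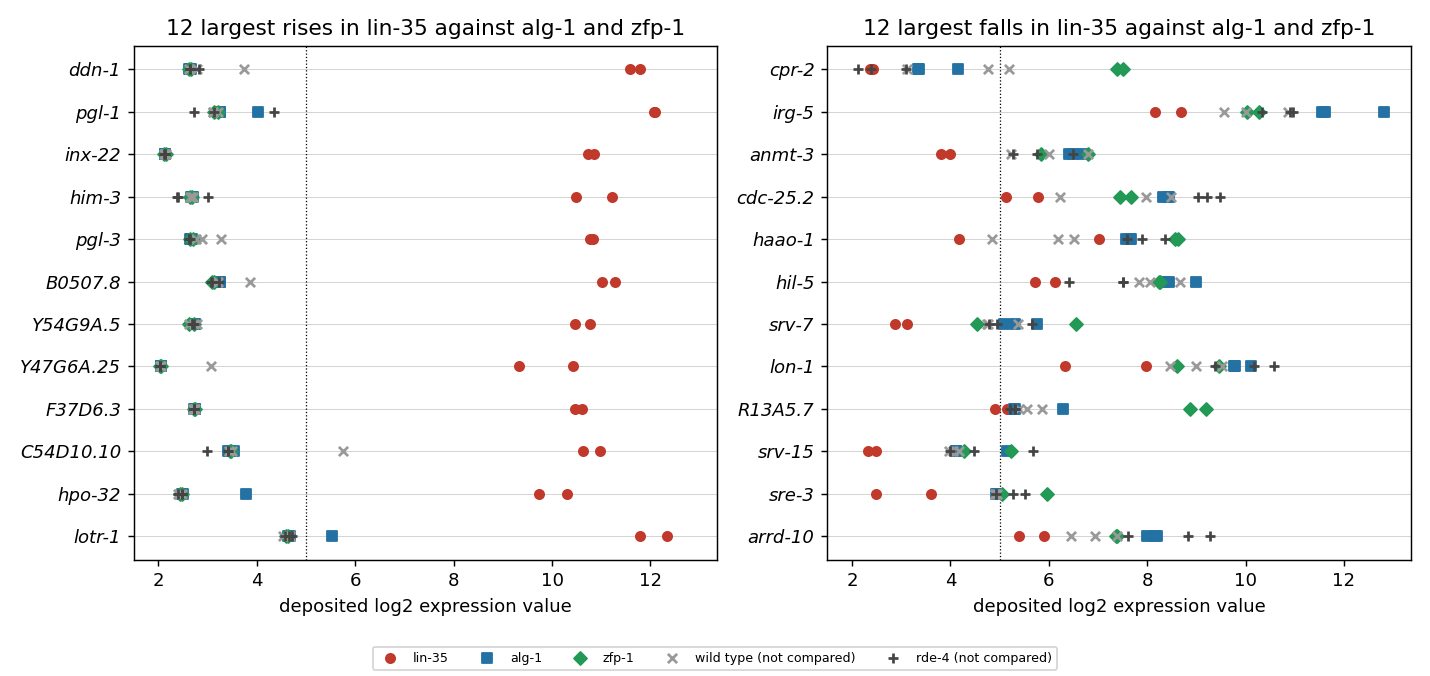
Deposited log2 values in each population for the 12 largest fitted rises (left) and the 12 largest falls (right) in lin-35 among genes that passed and whose groups do not overlap; red circles are lin-35, blue squares alg-1, green diamonds zfp-1, grey crosses wild type and dark plus signs rde-4, and the dotted line marks 5. The lin-35 points of the rises lie far to the right of all others, while the falls are smaller and in several of them the reference values are near 5.

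The largest falls were smaller and mixed in kind. The lin-35 mean was below 5 for cpr-2 (2.39), srv-15 (2.40), srv-7 (2.99), sre-3 (3.04) and anmt-3 (3.90). The size and order of these falls are therefore not dependable either, and for srv-15 the reference mean was itself 4.61. The linker histone gene hil-5 was at 5.72 and 6.13 in lin-35, 8.45, 8.998 and 8.35 in alg-1 and 8.26 and 8.24 in zfp-1. Both lin-35 samples were lower than any reference sample, and the fall was 2.50 ± 0.33 (SE, limma adjusted p = 4.42e-04). The CDC25 phosphatase gene cdc-25.2 was at 5.13 and 5.78 in lin-35, 8.44, 8.33 and 8.43 in alg-1 and 7.66 and 7.44 in zfp-1. It fell by 2.52 ± 0.46 (SE, limma adjusted p = 0.0049), and its groups did not overlap. For lon-1, which encodes a secreted CRISP family protein that limits body length, the lin-35 values of 6.34 and 7.98 were far apart but below 10.12, 9.79 and 9.77 in alg-1 and 8.60 and 9.47 in zfp-1. The fall was 2.30 ± 0.46 (SE, limma adjusted p = 0.00829). The infection response gene irg-5 was at 8.69 and 8.16 in lin-35, 11.60, 12.81 and 11.54 in alg-1 and 10.02 and 10.28 in zfp-1, and fell by 2.64 ± 0.40 (SE, limma adjusted p = 0.00124). The zfp-1 samples lay between lin-35 and alg-1. The kynurenine pathway gene haao-1, a hydroxyanthranilate dioxygenase, had lin-35 values of 4.17 and 7.03 that differed from each other by more than the second differed from the reference (7.68, 7.65 and 7.56 in alg-1, 8.62 and 8.56 in zfp-1, limma adjusted p = 0.0293). The amine methyltransferase gene anmt-3, the arrestin domain gene arrd-10, the cathepsin B-like gene cpr-2, the uncharacterised R13A5.7 and the chemoreceptor genes srv-7, srv-15 and sre-3 completed the 12. Wild type was nearer to lin-35 than to the reference mean for haao-1 (wild-type mean 5.85) and R13A5.7 (5.60). It was nearer to the reference mean for the rest of the 12.

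Germline genes were among the strongest rises, but only a part of each list was involved. Of 36 germ granule genes, 35 had a probe set, 13 were tested and 5 rose (38.5%, against 6.56% of all tested genes) while none fell. Of 35 meiosis genes, 33 had a probe set, 12 were tested and 6 rose (50%), with none lower. The medians of the tested members were 0.09 and 0.98, beside -0.01 for all genes. Since 2 of the 13 and 4 of the 12 were tested only through lin-35, these shares lean on the rises themselves. When only wild type and rde-4 decided which genes were tested, 2 of 9 germ granule genes and 2 of 8 meiosis genes rose, beside 4.56% of the 8374 genes tested under that filter. In these whole animals a larger number of cells of a type and more RNA per cell cannot be told apart.

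Among P granule components, pgl-3 was at 10.77 and 10.83 in lin-35 and between 2.63 and 2.69 in the 5 reference samples, at least 55.7-fold higher (limma adjusted p = 1.80e-11). Both pgl-3 and pgl-1, given above, were tested only through lin-35. The Vasa-like helicase gene glh-1 was at 11.99 and 12.98 in lin-35, 7.26, 6.18 and 6.61 in alg-1 and 5.81 and 6.18 in zfp-1. It rose by 6.14 ± 0.41 (SE, limma adjusted p = 5.13e-07) and the groups did not overlap. The maternal RNA-binding protein gene spn-4 was at 7.76 and 8.61 in lin-35 and 4.94 to 5.18 in the reference (limma adjusted p = 7.30e-07). The germline Argonaute gene csr-1 was at 6.98 and 6.66 in lin-35, 5.13, 6.18 and 5.12 in alg-1 and 5.14 and 4.85 in zfp-1, a narrower gap (limma adjusted p = 0.0084). Other germline genes had negative differences that did not pass: prg-1, the PIWI Argonaute, differed by -1.48 (limma adjusted p = 0.0615) and pos-1, a maternal zinc finger protein, by -0.86 (limma adjusted p = 0.678). These 2 were chosen after their values were seen.

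The meiotic rises covered chromosome structure and recombination. The axis gene him-3 was at 10.49 and 11.21 in lin-35 and 2.64 to 2.70 in the reference, at least 57.8-fold higher (limma adjusted p = 1.35e-10). The synaptonemal complex gene syp-1 was at 8.53 and 9.19 in lin-35 and 2.71 to 3.14 in the reference, at least 14.5-fold higher (limma adjusted p = 4.75e-10). Neither gene overlapped between the groups. A second axis gene, htp-1, was at 6.56 and 6.86 in lin-35 and 3.92 to 4.58 in the reference (limma adjusted p = 1.80e-05), and dsb-2, needed for meiotic double-strand breaks, at 5.81 and 7.16 against 3.32 to 3.52 (limma adjusted p = 1.36e-05). These 4 genes were the members tested only through lin-35, so their calls lean on the filter. The repair genes rad-51, the strand exchange protein, and brd-1, the BARD1 homologue, had measurable reference levels and rose by 1.84 ± 0.26 (limma adjusted p = 7.87e-04) and 1.44 ± 0.36 (limma adjusted p = 0.0289).

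Some gonad and gamete genes rose too. Of 42 oocyte and egg genes, 15 were tested, 2 of them only through lin-35, and 4 rose (26.7%, beside 6.56% of all tested genes), with a list median of -0.12. When only wild type and rde-4 set the filter, 1 of 10 rose, beside 4.56% of all genes tested under it. The eggshell proteoglycan gene cpg-2 was at 7.69 and 7.96 in lin-35 and 2.10 to 2.23 in the reference, at least 7.1-fold higher (limma adjusted p = 9.71e-11). The germline Notch receptor gene glp-1 was at 7.80 and 7.59 in lin-35 and 5.57 to 5.59 in the reference (limma adjusted p = 5.80e-06), a separation far wider than either group's spread. Of 17 innexins tested, inx-21 and inx-22, which form the germ cell side of gap junctions with the gonad sheath, rose (11.8%, beside 6.56% of all tested genes). The list median was -0.20. Both were tested only through lin-35, and with the filter set by wild type and rde-4 none of 15 innexins passed. The inx-21 values were 8.36 and 9.04 in lin-35 and 1.98 to 2.02 in the reference. Of 56 sperm genes, 6 were tested and 2 rose, both tested only through lin-35, so their count is fixed by the filter and none of 4 passed with the filter set by wild type and rde-4. The 2 were cpb-1, a CPEB family RNA-binding protein needed for spermatogenesis (6.98 and 6.83 in lin-35, 2.88 to 3.02 in the reference), and try-5, a seminal fluid protease (6.28 and 5.78 against 2.71 to 2.93).

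**Figure D3:**
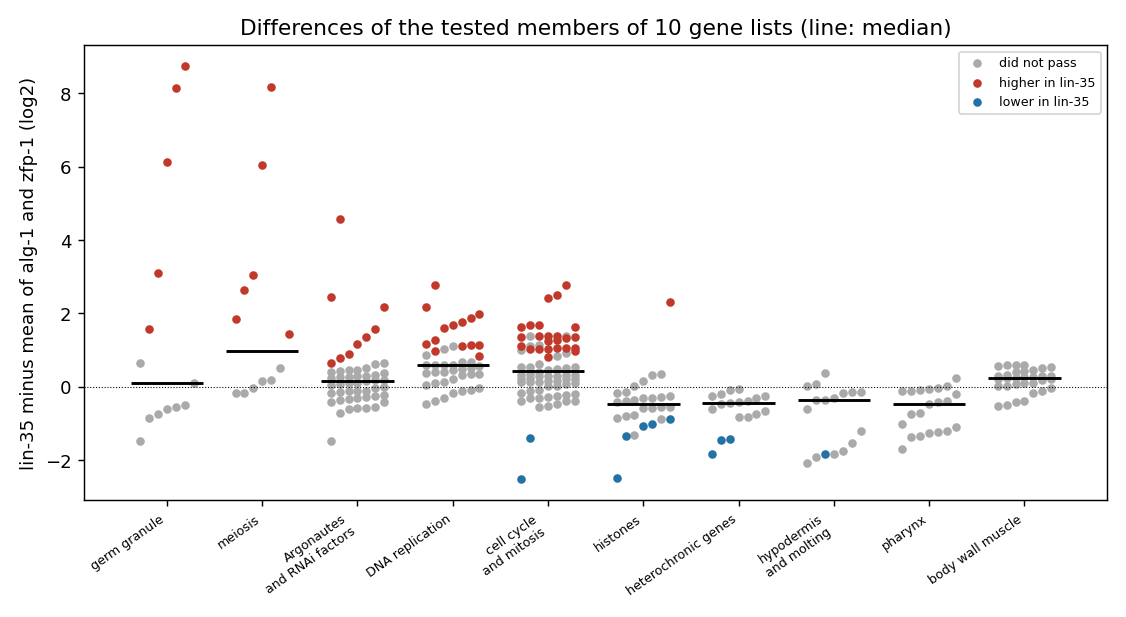
Difference between lin-35 and the mean of alg-1 and zfp-1 (log2) for each tested member of 10 gene lists; red points rose, blue points fell, grey points did not pass, and the black bar is the list's median. Germ granule and meiosis genes split into a few members with fitted differences up to 8.75 and a remainder near or below 0, DNA replication and cell cycle genes lie mostly above 0, and heterochronic and pharynx genes lie mostly below 0.

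Some factors of RNA interference rose. Of 51 tested genes of Argonautes and RNAi factors, 9 rose (17.6%, beside 6.56% of all tested genes) and none fell, with a median of 0.16. With the filter set by wild type and rde-4, 7 of 49 rose, beside 4.56% of all genes tested under it. The count was 6 or 5 without the first or the second lin-35 population, and after subtraction of array medians it was 6 higher and 2 lower. The gene hrde-1, for an Argonaute of germ cell nuclei, was at 7.68 and 8.23 in lin-35, 3.40, 3.62 and 3.16 in alg-1 and 3.40 and 3.34 in zfp-1. The lin-35 samples were at least 7.75-fold higher, with no overlap (limma adjusted p = 7.04e-09). The gene hrde-1 was the 1 member of the list tested only through lin-35, so its call leans on the filter. The nucleotidyltransferase gene rde-3, which adds poly-UG tails to RNAi targets, was at 8.01 and 8.62 in lin-35, 5.91, 6.58 and 5.09 in alg-1 and 5.62 and 6.13 in zfp-1, a rise of 2.45 ± 0.38 (SE, limma adjusted p = 0.00153). The RNA-dependent RNA polymerase gene rrf-2 was at 8.68 and 8.48 in lin-35, 6.64, 5.25 and 7.06 in alg-1 and 6.44 and 6.50 in zfp-1 (limma adjusted p = 0.0062). Neither gene overlapped between the groups, although the alg-1 samples of each spanned more than 1. The rde-4 transcript, encoding the Dicer partner mutated in strain BB11, was at 11.60 and 11.97 in lin-35, 10.26, 10.31 and 10.49 in alg-1 and 10.71 and 11.10 in zfp-1, and rose by 1.16 ± 0.18 (SE, limma adjusted p = 0.00177). The RIG-I-like helicase gene drh-1 rose by 0.88 ± 0.20 (SE, limma adjusted p = 0.0171), with lin-35 values of 9.49 and 9.80 above reference values of 8.48 to 9.03. Among 6 tested targets of endogenous siRNAs, C08F11.7 alone rose, at 7.34 and 7.85 in lin-35 and 2.06 to 2.08 in the reference. It was tested only through lin-35, and with the filter set by wild type and rde-4 none of 5 passed. The other 5 differed by -0.87 to 0.45 and did not pass.

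Many DNA replication and cell division genes rose. Of 44 tested replication genes, 14 rose (31.8%, beside 6.56% of all tested genes) and none fell, and the list's median was 0.59. Of 76 tested cell cycle and mitosis genes, 24 rose (31.6%) and 2 fell (2.63%, beside 1.05% of all tested genes), with a median of 0.43. Positive differences were seen in 37 of the 44 and 59 of the 76, while 49.3% of all tested genes were positive. None of the replication genes and 1 of the cell cycle genes was tested through lin-35 alone. The counts shrink when a lin-35 population is left out, to 11 or 7 rises in replication and 13 or 6 in the cell cycle list, and array median subtraction gave 7 and 15 rises with medians of 0.35 and 0.19.

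Replication calls covered origin recognition, the GINS helicase assembly and the lagging strand. The origin recognition gene orc-5 was at 10.85 and 11.13 in lin-35, 8.23, 8.80 and 7.89 in alg-1 and 7.99 and 8.24 in zfp-1, a rise of 2.78 ± 0.30 (SE, limma adjusted p = 6.67e-05). Its partner orc-1 was at 8.85 and 9.50 in lin-35, 7.12, 7.03 and 6.37 in alg-1 and 7.33 and 7.74 in zfp-1 (limma adjusted p = 7.18e-04). In both genes each lin-35 value exceeded each reference value, for orc-5 by more than the reference samples spanned. The GINS subunit gene psf-3 was at 8.59 and 9.15 in lin-35, 6.73, 6.54 and 6.65 in alg-1 and 6.80 and 6.71 in zfp-1, a rise of 2.17 ± 0.22 (SE, limma adjusted p = 3.83e-05). The flap nuclease and helicase gene dna-2 rose by 1.77 ± 0.25, the DNA ligase gene lig-1 by 1.68 ± 0.26 and the replisome linker gene ctf-4 by 1.61 ± 0.26, with limma adjusted p-values from 6.15e-04 to 0.00177. The 30 members that did not pass included mcm-2, mcm-3, mcm-4, mcm-5 and mcm-6 of the replicative helicase, at 0.32 to 0.59, and both ribonucleotide reductase genes, rnr-1 at -0.04 and rnr-2 at -0.11. The helicase subunit gene mcm-7 passed, at 1.12 (limma adjusted p = 0.022). These 8 were chosen after their values were seen.

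Mitotic rises ran from chromosome cohesion to cytokinesis. The separase gene sep-1, whose protease cuts cohesin at anaphase, was at 9.41 and 9.51 in lin-35, 6.67, 6.67 and 6.75 in alg-1 and 6.47 and 6.81 in zfp-1. It showed the smallest p of the list, with no overlap and a rise of 2.79 ± 0.19 (SE, limma adjusted p = 8.07e-07). The kinetochore gene knl-3 was at 10.58 and 11.08 in lin-35, 8.17, 8.90 and 8.24 in alg-1 and 8.16 and 8.56 in zfp-1, and rose by 2.43 ± 0.27 (SE, limma adjusted p = 7.85e-05). The condensin gene hcp-6 was at 10.99 and 11.32 in lin-35, 8.68, 8.30 and 8.66 in alg-1 and 8.66 and 8.86 in zfp-1, and rose by 2.51 ± 0.29 (SE, limma adjusted p = 1.09e-04). Both were higher in each lin-35 population than in any reference population. The cohesin kleisin gene scc-1 rose by 1.62 ± 0.23, the centriole gene sas-6 by 1.69 ± 0.26 and the cytokinesis kinesin gene zen-4 by 1.39 ± 0.24. The 2 falls of the list were cdc-25.2, given above, and the cyclin D gene cyd-1, which drives entry into S phase.

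Few genes of the Rb and E2F machinery itself were called. Of 27 tested, 3 rose (11.1%, beside 6.56% of all tested genes) and 2 fell (7.41%, beside 1.05%), 1 of them the mutated lin-35, and the median was 0.10. The DP gene dpl-1 was at 10.09 and 10.03 in lin-35, 7.67, 8.60 and 8.18 in alg-1 and 8.22 and 8.68 in zfp-1, and rose by 1.76 ± 0.39 (SE, limma adjusted p = 0.0165). The E2F gene efl-1 was at 8.49 and 8.89 in lin-35, 7.68, 7.27 and 7.78 in alg-1 and 7.78 and 7.48 in zfp-1 (limma adjusted p = 0.0288), and the MuvB gene lin-9 at 9.91 and 10.39, 9.20, 8.69 and 9.19 and 9.01 and 8.93 in the same order (limma adjusted p = 0.00424). All 3 were higher in each lin-35 sample than in any reference sample. Cyclin D, cyd-1, was at 7.83 and 7.33 in lin-35, 8.85, 8.34 and 9.26 in alg-1 and 9.44 and 8.90 in zfp-1, and fell by 1.41 ± 0.30 (SE, limma adjusted p = 0.013). Without the first or the second lin-35 population, 1 gene rose, and 2 or 1 fell.

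A list of regulators tied to the silencing or the expression of germline genes in somatic cells gave 2 calls. Of 19 tested, mes-4 rose (5.26%) and lin-35 fell (5.26%), beside 6.56% and 1.05% of all tested genes. The other 17 differed by -0.38 to 0.54. The histone methyltransferase gene mes-4, which maintains a mark of germline-expressed genes, was at 10.40 and 10.05 in lin-35, 9.34, 9.02 and 8.93 in alg-1 and 8.76 and 8.54 in zfp-1. It rose by 1.35 ± 0.27 (SE, limma adjusted p = 0.00912), without overlap. In the wider histone methylation list, 1 of 22 tested genes rose, mes-4 (4.55%), and 1 fell, set-17 (4.55%), beside the same 6.56% and 1.05%. The set-17 values were 6.96 and 7.46 in lin-35 and 7.80 to 8.15 in the reference (limma adjusted p = 0.0468).

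Most histone genes had lower values in lin-35, and the calls were mainly linker histones. Of 28 tested, 5 fell (17.9%, against 1.05% of all tested genes) and 1 rose, 23 had negative differences, and the median was -0.47. The 5 falls were hil-5, hil-6, hil-3 and his-24, linker histones, and his-59. The his-24 values were 12.55 and 12.38 in lin-35, 13.62, 14.62 and 13.76 in alg-1 and 13.48 and 13.72 in zfp-1. Both lin-35 samples were lowest, and the fall was 1.34 ± 0.34 (SE, limma adjusted p = 0.0313). The rise was hil-1, a further linker histone gene, at 7.58 and 6.38 in lin-35, 4.50, 5.44 and 4.48 in alg-1 and 4.62 and 4.42 in zfp-1 (limma adjusted p = 0.00317). Core histone genes are near-identical copies, so a probe set can read several of them and single members are uncertain. The number of falls was 2 or 1 without the first or the second lin-35 population, and 9 after array median subtraction.

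Timing and molting genes were on the low side. Of 18 tested heterochronic genes, which time larval cell fates, 3 fell (16.7%, beside 1.05% of all tested genes) and none rose. All 18 differences were negative, and the median was -0.45. The molting receptor gene nhr-23 was at 6.69 and 6.82 in lin-35, 9.42, 9.62 and 9.34 in alg-1 and 7.95 and 7.48 in zfp-1, and fell by 1.83 ± 0.37 (SE, limma adjusted p = 0.00938). The Period homologue lin-42 was at 4.69 and 5.04 in lin-35, 6.14, 5.45 and 6.06 in alg-1 and 7.05 and 6.42 in zfp-1, and fell by 1.44 ± 0.28 (SE, limma adjusted p = 0.00702). The transcription factor gene blmp-1, a Blimp homologue, was at 8.88 and 8.49 in lin-35, 10.03, 9.58 and 10.53 in alg-1 and 10.35 and 9.97 in zfp-1, and fell by 1.41 ± 0.34 (SE, limma adjusted p = 0.0237). In all 3 genes the lin-35 samples were lowest, and for nhr-23 the zfp-1 samples lay between the other groups. No member of the list passed without the first lin-35 population, and 1 passed without the second. Differences in larval age between the populations were not tested.

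Marker lists of tissues gave few calls. The pharynx list had 19 of 21 tested genes with negative differences (median -0.47), and none passed limma at an adjusted p under 0.05, while 5 were lower at an unadjusted p under 0.05. Its mean level was 7.48 and 7.61 in the lin-35 samples, 8.16 to 8.58 in alg-1 and 7.80 to 8.06 in zfp-1. In wild type it spanned 7.49 to 9.12 and in rde-4 6.89 to 7.95, so low levels were not particular to lin-35. The hypodermis and molting list had 14 of 17 negative differences, and only nhr-23 passed, as a fall (5.88%, beside 1.05% of all tested genes). The list's mean levels were 7.83 and 7.92 in lin-35, 8.80 to 9.07 in alg-1 and 8.31 to 8.52 in zfp-1. Body wall muscle genes had a median of 0.24 with 0 of 32 passing (3 higher at an unadjusted p under 0.05). Neuron genes had a median of -0.05, and ric-19 alone rose among 31 (3.23%). Intestine genes had a median of 0.09, and cpr-6 and ftn-1 rose among 24 (8.33%). Rises made up 6.56% of all tested genes. The part of tissue make-up in the results was not tested.

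Genes of protein synthesis and turnover showed few calls. No gene of the 32 tested proteasome subunits and the 32 aminoacyl-tRNA synthetases passed limma at an adjusted p under 0.05, while 1 and 2 had an unadjusted p under 0.05, and medians were -0.11 and -0.12. Of 72 cytosolic ribosomal protein genes only rpl-11.1 passed, as a fall (1.39%, beside 1.05% of all tested genes). It was at 9.42 and 10.12 in lin-35, 11.54, 11.48 and 11.71 in alg-1 and 11.10 and 11.31 in zfp-1, a fall of 1.62 ± 0.22 (SE, limma adjusted p = 5.68e-04). Of 54 mitochondrial ribosomal protein genes, mrps-21 alone fell (1.85%, limma adjusted p = 0.0102), 48 differences were negative and the median was -0.25. That median was -0.56 without the second lin-35 population and 0.02 without the first. None of 60 cuticle collagens, 40 homeobox genes, 27 Hedgehog-related genes and 21 heat shock genes passed, and 5, 4, 6 and 3 of them had an unadjusted p under 0.05, beside 1660 of all 8653 genes.

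**Figure D4:**
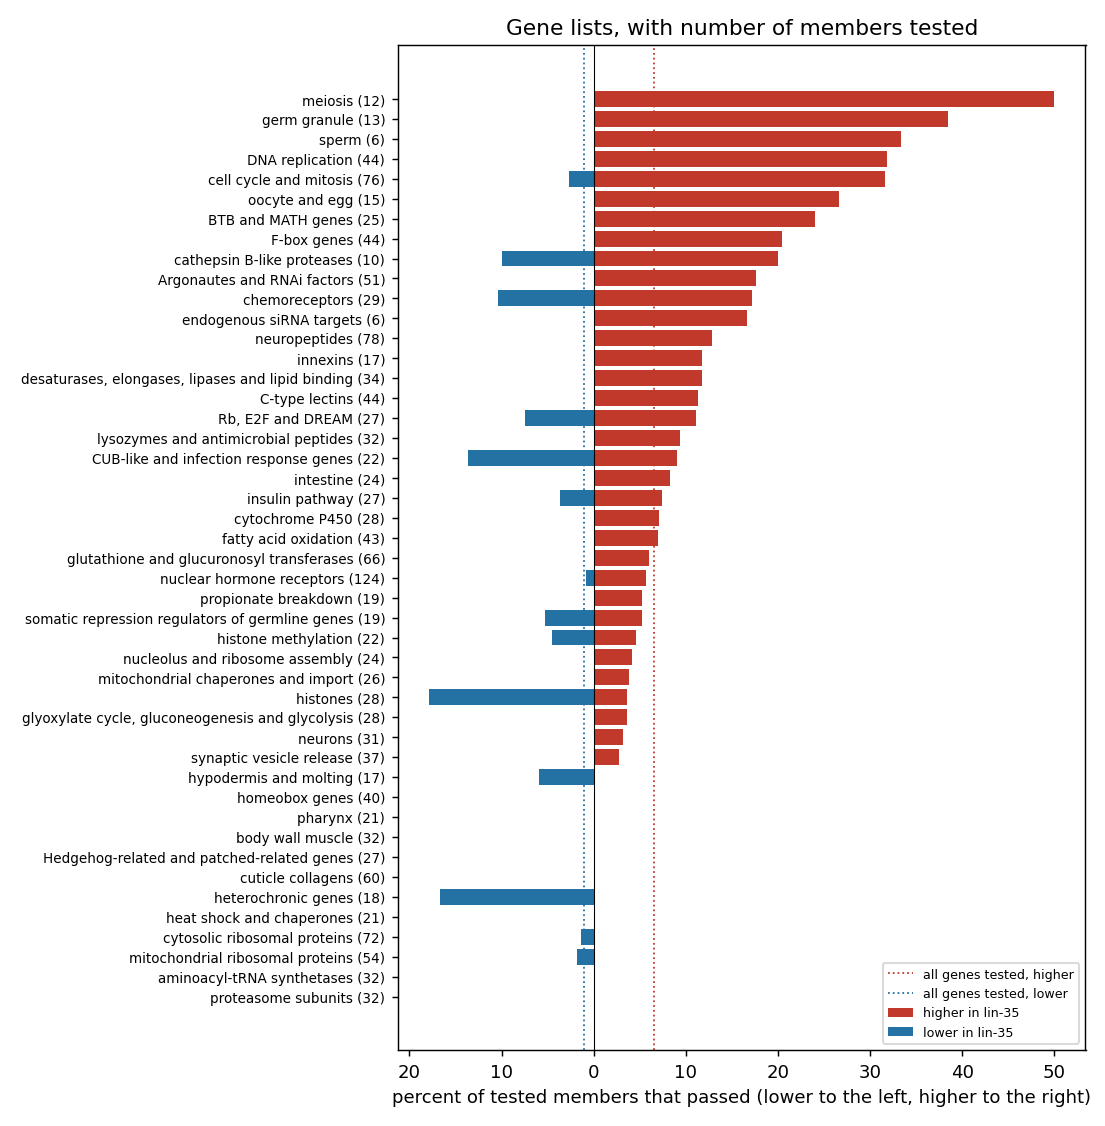
Share of the tested members of each gene list that rose (red, to the right) or fell (blue, to the left) in lin-35, in percent, for lists with at least 5 tested members; the number tested is given in brackets and dotted lines mark 6.56% and 1.05% of all tested genes. DNA replication (31.8%) and cell cycle genes (31.6%) have high shares of rises with almost no member tested only through lin-35, while the shares of meiosis (50%), germ granule (38.5%) and sperm genes (33.3% of 6) include such members and have no dependable rank; histones (17.9%) and heterochronic genes (16.7%) have the highest shares of falls among the lists drawn.

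Because both references are mutants, a difference from them does not tell whether the lin-35 larvae or the references stand apart from wild type. Wild type was therefore placed on a scale with the mean of alg-1 and zfp-1 at 0 and lin-35 at 1. Over the 568 rises the wild-type median was 0.0782, with quartiles of -0.0116 and 0.538, and wild type lay nearer to lin-35 for 161 genes and nearer to the references for 407. The rde-4 strain lay nearer to lin-35 for 37 of the 568, and wild type and rde-4 both did for only 29. Over the 91 falls, wild type lay nearer to lin-35 for 25 genes, with a median of 0.259, rde-4 for 13 and both for 6. These positions describe genes chosen on the same samples and carry no test.

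**Figure D5:**
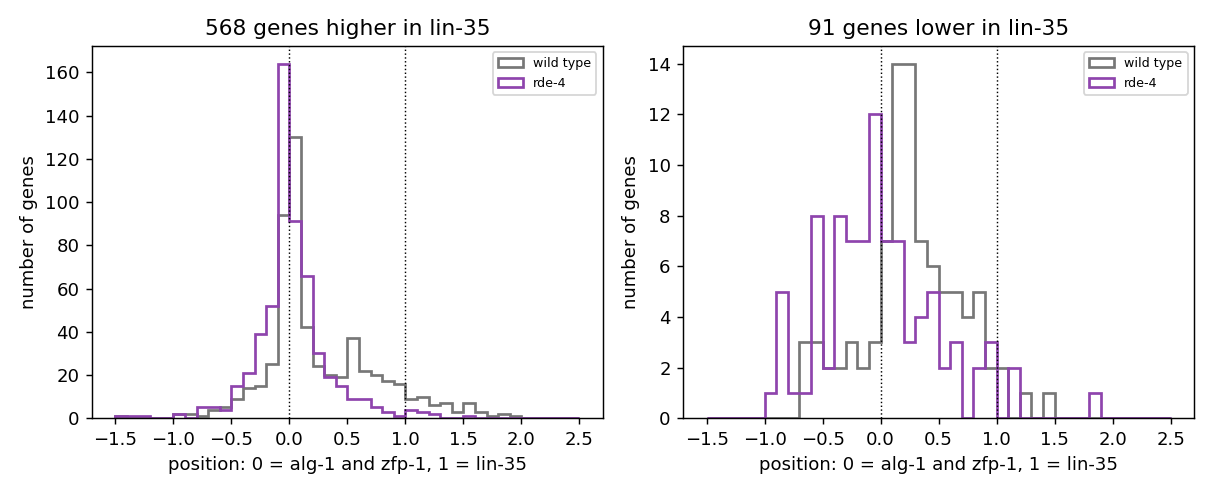
Position of wild type (grey) and rde-4 (purple) on a scale with the mean of alg-1 and zfp-1 at 0 and lin-35 at 1, as the number of genes per bin of 0.1, for the 568 rises (left) and the 91 falls (right); 2 genes beyond the axis are drawn in the end bins. Wild type lies within 0.2 of the references for 291 of the 568 rises, rde-4 for 373 and both for 239, and the upper quartile of wild type is 0.538.

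The gene lists separated along this scale. For the 14 replication and 24 cell cycle genes that rose, wild type lay nearer to the references every time, with medians of -0.0809 and -0.0994. The same held for the 5 germ granule and 6 meiosis genes. By contrast, wild type lay nearer to lin-35 for 6 of 10 neuropeptide genes, 3 of 5 C-type lectins, 3 of 3 lysozymes and antimicrobial peptides and 3 of 4 lipid genes. In the same 4 lists rde-4 lay nearer to lin-35 for 1, 0, 1 and 0 genes. On chromosome X, wild type lay nearer to lin-35 for 23 of 48 rises, and on chromosome I for 14 of 100.

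For the lipid-binding protein gene lbp-1 wild type was on the lin-35 side, with 10.54 and 10.73 in lin-35, 8.26, 8.29 and 8.13 in alg-1 and 8.16 and 8.77 in zfp-1, and with 10.80, 10.72 and 9.87 in wild type. The rde-4 mean, 8.56, was with the references. Both references were low, and lin-35 lay within the wild-type range (difference 2.28 ± 0.27, limma adjusted p = 1.60e-04). The lysosomal lipase gene lipl-1 was at 6.11 and 5.99 in lin-35, 3.79, 3.60 and 3.79 in alg-1, 3.02 and 3.29 in zfp-1 and 6.34, 7.27 and 6.88 in wild type (limma adjusted p = 5.72e-05). Here wild type was above lin-35, and the rde-4 mean of 3.21 was near the references. The lectin gene clec-76 was at 10.42 and 11.36 in lin-35, 9.27, 9.96 and 9.07 in alg-1 and 7.70 and 8.42 in zfp-1, while wild type was at 11.23, 11.88 and 11.61 (limma adjusted p = 0.00762). The lysozyme gene lys-4 was at 7.32 and 8.60 in lin-35, 5.40, 6.04 and 5.24 in alg-1, 4.92 and 4.49 in zfp-1 and 9.51, 11.18 and 9.27 in wild type (limma adjusted p = 0.0303), so lin-35 lay between the references and wild type. For clec-76 and lys-4 the rde-4 means were 9.13 and 5.72, nearer to the references than to lin-35.

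The acyl-CoA dehydrogenase gene acdh-1, which starts the propionate shunt used when cobalamin is short, was at 13.39 and 9.44 in lin-35, 2.46, 3.52 and 3.31 in alg-1, 7.32 and 8.78 in zfp-1, 13.90, 14.01 and 14.46 in wild type and 13.92, 14.35 and 10.61 in rde-4. The difference was 5.84 ± 1.06 (SE, limma adjusted p = 0.00482), and the lin-35 samples did not overlap the references but lay far apart from each other. The shunt's other genes did not pass: hphd-1 was at 11.38 and 8.13 in lin-35, 7.89, 7.70 and 7.44 in alg-1 and 8.95 and 9.72 in zfp-1 (limma adjusted p = 0.377), and the receptor gene nhr-68, which controls the shunt, at 9.55 and 7.00, 5.65, 5.63 and 5.96 and 5.54 and 6.95 (limma adjusted p = 0.0717). The first lin-35 population was above the second in acdh-1, hphd-1 and nhr-68, by more than 2 on the log2 scale. Without the second population 4 of the 19 tested propionate genes rose, and without the first none did. The alcohol dehydrogenase gene adh-1 was at 13.97 and 13.54 in lin-35, 12.56, 12.62 and 12.41 in alg-1 and 11.24 and 12.41 in zfp-1, with wild type at 14.51, 14.64 and 14.04 (limma adjusted p = 0.00697). Its rde-4 mean was 10.01.

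Secreted peptide and immune-type genes gave scattered calls. Of 78 tested neuropeptide genes, 10 rose (12.8%, beside 6.56% of all tested genes) and none fell (beside 1.05%), with a median of 0.08. The count was 2 without the first lin-35 population and 8 without the second. The neuropeptide gene flp-11, which promotes sleep in the worm, was at 11.34 and 11.25 in lin-35, 9.86, 10.19 and 10.14 in alg-1 and 10.28 and 10.41 in zfp-1, with wild type at 10.79, 10.54 and 10.27, and rose by 1.09 ± 0.19 (SE, limma adjusted p = 0.0035). The gene nlp-9 was at 11.05 and 10.69 in lin-35, 9.22, 9.84 and 9.32 in alg-1 and 9.20 and 9.16 in zfp-1 (limma adjusted p = 0.00133). Of 44 C-type lectins 5 rose (11.4%, beside 6.56% of all tested genes). The gene clec-60 led with 10.76 and 11.35 in lin-35, 6.52, 7.88 and 6.47 in alg-1 and 5.37 and 6.30 in zfp-1, a rise of 4.66 ± 0.59 (SE, limma adjusted p = 2.65e-04). Among 22 CUB-like and infection response genes, 2 rose (9.09%) and 3 fell (13.6%), beside 6.56% and 1.05% of all tested genes. With the filter set by wild type and rde-4, 1 of 21 rose, beside 4.56% of all genes tested under it. The 2 higher genes were pals-5 at 6.78 and 7.43 in lin-35 against 2.82 to 3.05 in the reference, and F53A9.8 at 14.72 and 14.75 against 12.74 to 14.03. The 3 lower genes were irg-5, irg-4 at 11.38 and 12.60 in lin-35 against 12.84 to 14.01 in the reference, and dod-22 at 5.85 and 7.29 against 7.39 to 9.58. For dod-22 wild type, at 5.58, 5.17 and 6.05, and rde-4, at 4.09, 4.89 and 5.72, were on the lin-35 side. Wild type was also nearer to lin-35 for irg-4 (mean 12.29) and F53A9.8 (mean 14.65), and nearer to the references for irg-5 and pals-5. The rde-4 means of irg-4 and F53A9.8, 13.26 and 12.14, were nearer to the references. The insulin pathway target sod-3, a mitochondrial superoxide dismutase, was at 7.60 and 6.83 in lin-35, 3.40, 3.84 and 3.16 in alg-1 and 3.36 and 3.08 in zfp-1, at least 4.64-fold higher (limma adjusted p = 1.24e-04). Its reference values were all below 5 and it was tested in only 24 of 26 settings, so its call depends on the filter. Of 27 tested insulin pathway genes, 1 of them tested only through lin-35, 2 rose (7.41%) and 1 fell (3.70%). These shares stand beside 6.56% and 1.05% of all tested genes. Among 124 tested nuclear hormone receptors 7 rose (5.65%) and 1, nhr-23, fell (0.806%), shares close to those over all genes (6.56% and 1.05%).

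F-box and MATH domain genes, which encode large families of predicted ubiquitin ligase adaptors, included several rises. Of 44 tested F-box genes 9 rose (20.5%) and of 25 BTB and MATH genes 6 rose (24%), beside 6.56% of all tested genes, with none lower and medians of 0.40 and 0.55. When only wild type and rde-4 decided which genes were tested, 4 of 38 and 2 of 20 rose, beside 382 of all 8374 genes tested under that filter (4.56%). Of the 44 and the 25, 5 and 4 were tested only through lin-35. The gene fbxa-6 was at 8.46 and 8.59 in lin-35, 4.55, 3.57 and 4.01 in alg-1 and 3.73 and 3.47 in zfp-1, at least 11.5-fold higher (limma adjusted p = 1.05e-07). The gene bath-36 was at 7.09 and 7.19 in lin-35, 4.27, 4.13 and 3.69 in alg-1 and 3.30 and 3.29 in zfp-1, at least 4.41-fold higher (limma adjusted p = 2.78e-07). Neither overlapped between groups. Of 1279 chemoreceptor genes with a probe set, 29 were tested, 3 of them only through lin-35, with a median of 0.04. Of the 29, 5 rose (17.2%) and 3 fell (10.3%), beside 6.56% and 1.05% of all tested genes. With the filter set by wild type and rde-4, 2 of 24 rose and 2 fell, beside 4.56% and 0.848% of all genes tested under it. The gene srd-4 was at 7.65 and 7.86 in lin-35 and 2.24 to 2.28 in the reference, at least 6.76-fold higher (limma adjusted p = 9.71e-11).

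For 14 of the 568 rises and 8 of the 91 falls, alg-1 and zfp-1 also differed from each other, so their mean stands for neither strain. The chemoreceptor gene srw-85 was at 9.89 and 9.67 in lin-35 and 9.48, 9.64 and 9.57 in alg-1, but at 2.63 and 2.77 in zfp-1. It was low in rde-4 too, at 2.50, 2.49 and 2.65, and at 9.05, 8.93 and 9.24 in wild type, so lin-35 differed by 0.22 from alg-1 and by 7.08 from zfp-1. For H06A10.1 alg-1 was the low strain, with 8.74 and 8.27 in lin-35, 7.04 and 7.15 in zfp-1 and 3.12, 3.86 and 3.86 in alg-1. It was at 8.02, 6.90 and 7.04 in wild type and 3.85, 3.85 and 3.81 in rde-4. The cathepsin B-like gene cpr-6 was at 11.96 and 11.86 in lin-35, 10.11, 10.48 and 10.13 in alg-1 and 8.63 and 8.32 in zfp-1, with wild type at 12.28, 12.44 and 12.08. Its order was lin-35 above alg-1 above zfp-1, with no overlap between neighbours. Among the falls, cpr-2 was at 2.37 and 2.42 in lin-35, 3.33, 4.15 and 3.36 in alg-1 and 7.51 and 7.39 in zfp-1, and R13A5.7 at 5.15 and 4.91, 5.28, 6.29 and 5.32 and 8.88 and 9.19 in that order. In both genes zfp-1 was far above alg-1. The neuronal transcription factor gene egl-46 was at 4.53 and 5.00 in lin-35, 7.74, 7.74 and 7.47 in alg-1 and 5.49 and 5.07 in zfp-1, so zfp-1 lay near lin-35 and alg-1 near wild type (7.19, 8.03 and 7.29).

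Rises were spread over all 6 chromosomes. The share of tested genes that rose was 6.91% on chromosome I, 6.56% on II, 6.50% on III, 6.75% on IV, 8.46% on V and 3.71% on X, beside 6.56% overall. On V 138 of 1631 genes rose and 20 fell, and on X 48 of 1293 rose and 13 fell. Genes tested only through lin-35 numbered 49 on V and 7 on X. After array median subtraction 102 genes rose on V and 31 on X. The shares are descriptions, with no test between chromosomes.

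Genes next to the threshold show what a call near it looks like. Just inside were W08F4.3, gst-20 and cpna-3, with differences of -0.74, 0.89 and 0.76. Just outside were hrg-11.2, nlp-81 and del-5, with -1.02, 0.68 and 0.76. Of these 6 genes only gst-20, a glutathione transferase, overlapped between the groups, at 11.28 and 11.98 in lin-35, 11.22, 11.44 and 11.08 in alg-1 and 10.39 and 10.05 in zfp-1.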

How the data were processed

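Total RNA from whole L1 to L2 larvae of 5 strains was labelled by the one-cycle Affymetrix protocol from 5 µg, per the labels' protocols, and hybridised to 1-colour arrays. The authors deposited log2 values, for which the submitters' processing notes name GCRMA, with a version not given in the sources used here. They were used as deposited, with no presence flags and no probe-level data. Of 22625 probe sets, 77 were controls, 20766 had 1 gene in the platform annotation, 887 had several and 895 were not listed. For a gene with several probe sets, the one with the highest mean was kept.

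Arrays of 1 population were averaged, and genes reaching 5 in at least 2 of 13 populations were fitted with limma 3.58.1 (lmFit and eBayes) in R 4.3.3. All 5 groups were in the fit, and lin-35 was contrasted with the mean of the alg-1 and zfp-1 means. P-values were adjusted by Benjamini-Hochberg over 8653 genes at a threshold of 0.05. The code was tested on simulated data. Genes named are the 12 largest non-overlapping rises and falls, the mutated genes, at most 6 called members per list taken in order of adjusted p, members of short lists, 4 genes each way at which the references differ, and 3 genes on each side of the threshold. The comparison, the lists and this rule were chosen with earlier results of these data known. Alternatives covered scaling, filters, repeated arrays, the samples fitted, the replicate number, the variance prior, probe sets, reference weights, thresholds and each population left out. No sequence is shown, because none was used here.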

Additional observations from a re-analysis of the deposited data

How the results depend on the processing

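The 659 calls moved by more than 1.5 times in the following cases, and the cause was not tested where the setting itself does not give it. The count of falls (91) was 160 after quantile normalisation, 266 after array median subtraction, 57 with values of at least 5 in all 7 samples, 32 at an adjusted p under 0.01 and 25 to 159 with 1 population left out. The count of rises (568) was 337 with values of at least 5 in all 7 samples, 334 at an adjusted p under 0.01 and 342 to 614 with 1 population left out. Calls against alg-1 (601) were 390 when only wild type and rde-4 set the filter, 331 with at least 5 in all 7 samples, 395 with alg-1 populations 1 and 3 taken as 1, 324 at an adjusted p under 0.01 and 339 to 610 with 1 population left out. Calls against zfp-1 (543) were 328, 286 and 296 under those 2 filters and that stricter threshold, and 270 to 578 with 1 population left out. Calls between alg-1 and zfp-1 (61) were 33 with at least 5 in all 7 samples, 98 with only the 7 samples in the fit, 37 with alg-1 populations 1 and 3 as 1, 26 at an adjusted p under 0.01 and 18 to 74 with 1 population left out. The populations that moved a count this far were both of lin-35, both of zfp-1 (falls 50 without the first and 54 without the second) and alg-1 population 1 (397 calls against alg-1). The remaining counts stayed within 1.5 times. None of the 659 called genes changed sign in any of the 26 settings in which it was tested.

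With the replicate number as a block, 558 genes rose and 113 fell. Same-numbered populations all correlated positively in their deviations, at 0.0986 to 0.203. The 6 pairs are not separate values, because deviations within a group of 2 mirror each other. Since 1 of the 6 pairs was not above 0.1 and the labels state no shared batch, the numbers were not taken to pair the samples. Whether same-numbered populations shared a batch was not tested. Of the 659 called genes, 442 were tested in all 26 settings and 102 of these kept their call in each, while 217 were not tested under at least 1 filter and 154 of these kept their call in every setting that tested them. Of 139 called genes named in the text or by its rule, 28 were tested and kept in all 26 settings, and 44 were kept in all that tested them but were not tested in some. With 2 lin-35 populations and no background flags, differences among values under 5 have no dependable size.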

Other observations

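Many members of a gene family of which only pals-5 is in the lists were near the bottom of the scale in the reference and high in lin-35. The family was chosen after its values were seen, so no test of the group is given. The pals genes are a worm family of which several members are known from the response to intracellular infection by microsporidia and virus. Of 23 pals genes with a probe set, 14 were tested, 11 of them only through lin-35. The same 11 rose, so that count is fixed by the filter, and the other 3 did not pass. In every lin-35 sample 13 were at 5 or above, and 2 were in every reference sample. The mean level of the 23 was 6.17 in lin-35, 3.20 in the reference, 3.36 in wild type and 3.18 in rde-4. The gene pals-6 was at 9.60 and 9.41 in lin-35, 2.60, 2.60 and 2.56 in alg-1, 2.59 and 2.50 in zfp-1 and 4.50, 2.65 and 2.58 in wild type, at least 22.7-fold higher than the reference (limma adjusted p = 1.57e-07). The gene pals-2 was at 8.62 and 8.59 in lin-35 and 2.13 to 2.19 in the reference (limma adjusted p = 2.70e-11). In contrast pals-22 and pals-25, a pair of regulators of the family, had differences of 0.36 (limma adjusted p = 0.386) and 0.26 (limma adjusted p = 0.719), which did not pass.

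Genes that are known to be induced together with pals genes in infected worms were also high. The gene eol-1 was at 9.62 and 9.97 in lin-35 and 2.87 to 2.96 in the reference, with wild type at 4.48, 2.99 and 2.92 (limma adjusted p = 3.35e-08). F26F2.3, F26F2.4 and F42C5.3, below 5 in every reference sample, were at least 16.6-fold, 22.4-fold and 26.3-fold higher, and all 3 passed. They and eol-1 were below 5 in every wild-type and rde-4 population too and were tested only through lin-35. Their calls therefore lean on the filter, and these genes were chosen after their values were seen. Wild-type population 1 was above the other wild-type populations for pals-6 and eol-1.

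A few further rises are germline or replication genes that are in none of the lists. The gene rnp-8, whose product partners a germline poly(A) polymerase, was at 7.74 and 7.29 in lin-35 and 1.83 to 1.86 in the reference (limma adjusted p = 1.35e-10). The meiotic RING finger gene zhp-2 was at 8.004 and 8.04 against 2.57 to 2.61 (limma adjusted p = 9.35e-11), and of the piRNA pathway genes tofu-7 was at least 8.32-fold higher and pid-2 rose by 4.71. The replication kinase gene cdc-7 was at 7.39 and 7.92 in lin-35 and 3.06 to 4.09 in the reference (limma adjusted p = 1.16e-05). All of these were chosen after their values were seen. All but pid-2 were tested only through lin-35, so their calls lean on the filter.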
